A study of Saccharomyces cerevisiae with 4 samples.

Results

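The genes described here make and furnish the cell wall of budding yeast, *Saccharomyces cerevisiae*. They were chosen by systematic name as 10 genes for glucan and chitin synthesis, wall crosslinking and wall mannoproteins, and 8 of the 10 were among the 6030 transcripts of the deposited annotation. The 8 were the chitin synthase genes CHS1, CHS2 and CHS3, the crosslinking enzyme genes GAS1 and CRH1, and the mannoprotein genes CWP1, CWP2 and SED1. The glucan synthase genes FKS1 and GSC2 were not analysed here. The study sequenced newly made RNA, labelled with 5 mM 4-thiouracil for 6 min. The strain was given as Y40343, and its genotype label carries Ssl2-FRB::kanMX6. Ssl2 is the DNA translocase of TFIIH, and in the anchor-away method rapamycin ties an FRB-tagged protein to an anchor that leaves the nucleus. The groups were 2 libraries of this strain with rapamycin and 2 libraries of the same strain without it, all grown in YPD at 30 C. The labels give no dose or duration of rapamycin, no rapamycin sensitivity of the strain and no untagged strain with rapamycin, so loss of Ssl2 from the nucleus and any other effect of rapamycin cannot be told apart.

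The yeast wall is built on a network of beta-1,3-glucan to which beta-1,6-glucan, a little chitin and an outer layer of mannoproteins are attached. Chitin is laid down mainly at the bud neck, in the septum and in the scars that division leaves, and each chitin synthase has its own place and time in the cycle. Wall proteins with a glycosylphosphatidylinositol (GPI) anchor are cut from the membrane and linked to glucan. The cell wall integrity pathway senses strain on the wall at the plasma membrane and signals through Rho1, Pkc1 and the MAP kinase Slt2 to the transcription factor Rlm1, whose targets include many wall genes.

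Feature counts summed to 11441998 and 12685769 in with rapa replicates 1 and 2, and to 32435994 and 29318499 in no rapa replicates 1 and 2. The 8 genes had between 676 and 78631 counts in each library. Levels are CPM, counts relative to library size, with TMM scaling, which sets each gene against the bulk of genes, so a change common to most genes is not seen. The RNA came from whole cultures, in which fewer cells making a transcript and less of it per cell cannot be told apart. No label ties a replicate to a culture of its own, and the spread behind each p-value may be technical. The share of reads that hit no feature was 50.45% and 49.95% in with rapa replicates 1 and 2, against 33.7% and 33.1% in no rapa replicates 1 and 2, and its part in the results was not tested.

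With rapamycin, 7 of the 8 cell wall genes fell and none rose; 4 of the 8 were called lower with upper quartile scaling, and 4 without no rapa replicate 2. CWP1, a GPI mannoprotein gene, was 7.08-fold lower, and GAS1, which encodes the main glucan-elongating enzyme of the wall, was 2.82-fold lower. The chitin synthase genes were 1.53-fold to 2.22-fold lower. SED1, with the most labelled RNA per kilobase among the 8 genes, was uncalled. The median log2 fold change (with rapa over no rapa) of the 8 genes was -0.91, against -0.14 over 4910 tested open reading frame transcripts and -0.03 over all 5707 tested features. A gene is called here when its Benjamini-Hochberg adjusted p over all tested features is under 0.05 in edgeR's quasi-likelihood test. Of all tested features 46.0% were called, 26.7% lower (1522) and 19.3% higher (1101), while upper quartile scaling gave 961 lower and 1706 higher. Of tested open reading frame transcripts 30.2% were called lower and 17.5% higher. The share called lower was 36.5% among 1319 open reading frame transcripts whose average log2 CPM was 7.5 or more, a level that all 8 genes exceeded, and 49.0% among 345 of at least 3000 bp, a length that the 3 chitin synthase transcripts exceeded. The libraries of the 2 groups did not overlap for 7 of the 8 genes, all lower with rapamycin, where 40.1% of all tested features were lower without overlap.

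**Figure D1:**
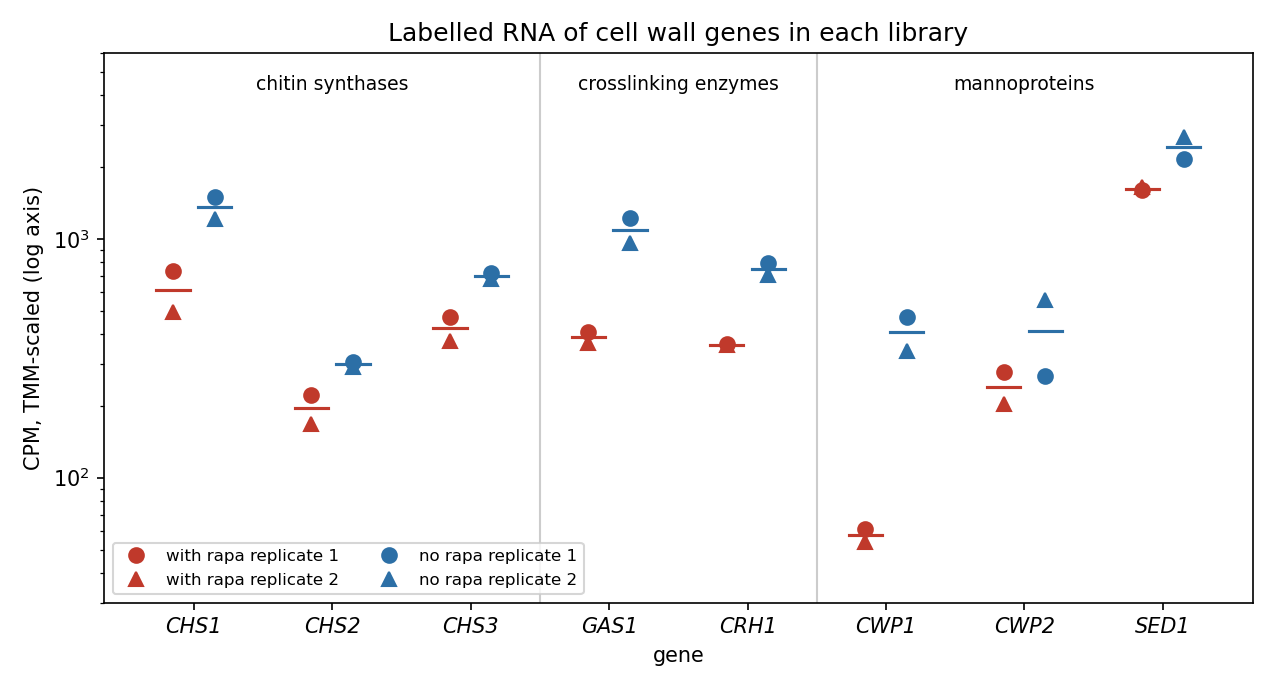
Level of each cell wall gene in each library, in CPM with TMM scaling on a log axis, with rapa in red left of no rapa in blue; circles are replicate 1, triangles replicate 2 and lines the group means. The red points lie below the blue ones for every gene except CWP2, where with rapa replicate 1 (278 CPM) is above no rapa replicate 1 (267 CPM).

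The chitin synthase genes were all lower with rapamycin, CHS1 the most. CHS1 (YNL192W, chromosome XIV, 276346 to 279982, plus strand, R64) encodes the synthase that repairs the wall after mother and daughter separate. It measured 735 and 492 CPM with rapamycin, against 1503 and 1215 CPM without it. Both libraries with rapamycin were below both without it, and the log2 fold change was -1.15 ± 0.26 (SE, n = 2 a group; adjusted p = 0.00338, edgeR quasi-likelihood test). CHS2 (YBR038W, chromosome II, 311861 to 314975, plus strand) encodes the synthase of the primary septum. It measured 222 and 168 CPM with rapamycin, against 306 and 290 CPM without it. The groups did not overlap, with a log2 fold change of -0.61 ± 0.18 (adjusted p = 0.0168, edgeR). CHS3 (YBR023C, chromosome II, 284226 to 288054, minus strand) encodes the synthase that makes most wall chitin, including the ring at the bud neck. It measured 471 and 374 CPM with rapamycin, against 718 and 680 CPM without it. The groups again did not overlap, with a log2 fold change of -0.73 ± 0.20 (adjusted p = 0.0120, edgeR). The calls of CHS2 and CHS3 were lost when no rapa replicate 1 (log2 fold changes of -0.58 and -0.70), no rapa replicate 2 (-0.66 and -0.78) or with rapa replicate 2 (-0.33 and -0.47) was left out, and with upper quartile scaling (-0.30 and -0.42). CHS1 was called in each of the 12 alternatives.

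Both crosslinking enzyme genes fell. GAS1 (YMR307W, chromosome XIII, 886968 to 888859, plus strand) encodes a GPI-anchored enzyme that cuts and rejoins beta-1,3-glucan chains. It measured 406 and 367 CPM with rapamycin, against 1221 and 962 CPM without it. The pair with rapamycin lay far below the other, with a log2 fold change of -1.50 ± 0.22 (SE, n = 2 a group; adjusted p = 0.000208, edgeR quasi-likelihood test). CRH1 (YGR189C, chromosome VII, 876550 to 878254, minus strand) encodes a transglycosylase that links chitin to beta-1,6-glucan. It measured 362 and 359 CPM with rapamycin, against 793 and 702 CPM without it. The groups did not overlap, with a log2 fold change of -1.05 ± 0.20 (adjusted p = 0.00101, edgeR). Both genes were called in all 12 alternatives, with log2 fold changes between -1.67 and -1.18 for GAS1 and between -1.15 and -0.73 for CRH1.

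The mannoprotein genes differed widely in size of change. CWP1 (YKL096W, chromosome XI, 261085 to 261945, plus strand) encodes a GPI mannoprotein found at birth scars. It measured 61.1 and 53.6 CPM with rapamycin, against 472 and 340.5 CPM without it. Both libraries with rapamycin were far below both without it, with a log2 fold change of -2.82 ± 0.21 (SE, n = 2 a group; adjusted p = 3.83e-06, edgeR quasi-likelihood test). Ordered from the lowest fold change, CWP1 stood at place 14 of the 5707 tested features, and it was called in all 11 alternatives in which it was tested. Its tandem neighbour CWP2 (YKL096W-A, chromosome XI, 259205 to 259705, plus strand) encodes a major GPI mannoprotein. CWP2 measured 278 and 204 CPM with rapamycin, against 267 and 557 CPM without it. The groups overlapped, since no rapa replicate 1 lay below with rapa replicate 1, and the log2 fold change was -0.78 ± 0.29 (adjusted p = 0.0446, edgeR). Without no rapa replicate 2 the log2 fold change of CWP2 was -0.16 and the call was lost (adjusted p = 0.699, edgeR), and without no rapa replicate 1 it was -1.22. The CWP2 call was also lost with upper quartile scaling (-0.48), without TMM factors (-0.70) and with open reading frames alone (-0.66). SED1 (YDR077W, chromosome IV, 600762 to 602139, plus strand) encodes a major structural GPI mannoprotein that is abundant in stationary phase. It measured 1597 and 1641 CPM with rapamycin, against 2168 and 2674 CPM without it. The groups did not overlap, but SED1 was uncalled, with a log2 fold change of -0.58 ± 0.27 (adjusted p = 0.0965, edgeR). DESeq2 called SED1 lower at -0.51 (adjusted p = 0.0229).

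**Figure D2:**
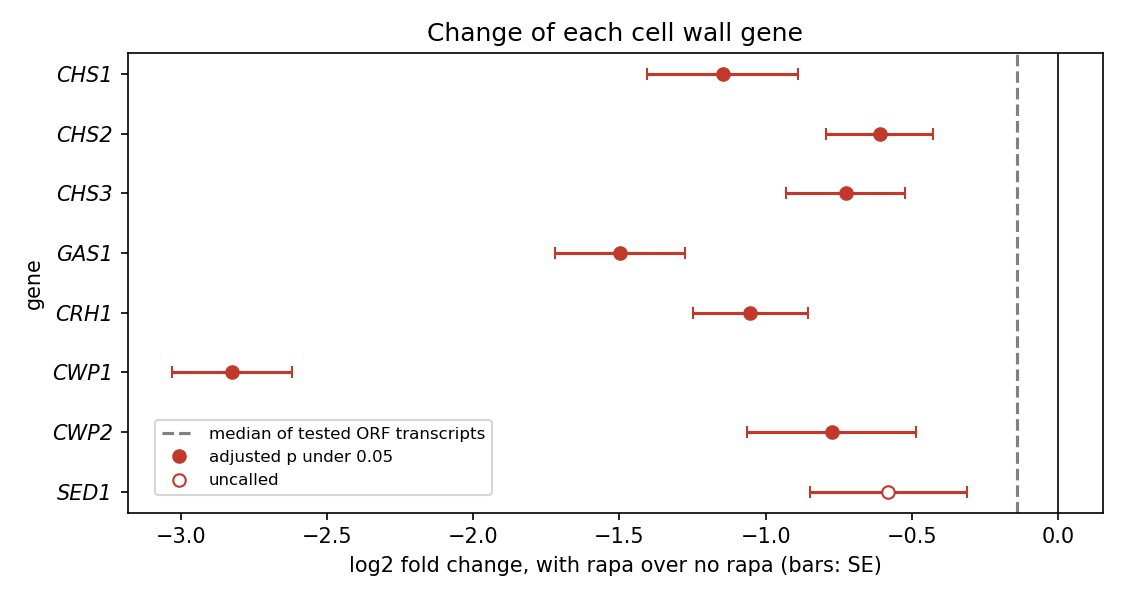
Log2 fold change of each cell wall gene, with rapa over no rapa, with its SE as bars; filled points have an adjusted p under 0.05 (edgeR) and the dashed line is the median of tested open reading frame transcripts. All 8 points lie left of the dashed line at -0.14, from -2.82 for CWP1 to -0.58 for SED1, the open point.

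Levels per kilobase of transcript allow the genes to be set against each other. With rapamycin, SED1 stood at 1175 ± 22.6 CPM per kilobase, CWP2 at 481 ± 105, CRH1 at 211 ± 1.18, GAS1 at 204 ± 14.5, CHS1 at 169 ± 47.3, CHS3 at 110 ± 18.0, CWP1 at 66.6 ± 6.16 and CHS2 at 62.7 ± 12.2 (SD, n = 2). Without rapamycin, the order was SED1 at 1757 ± 260 CPM per kilobase, CWP2 at 822 ± 409, GAS1 at 577 ± 96.7, CWP1 at 472 ± 108, CRH1 at 439 ± 37.5, CHS1 at 374 ± 56.0, CHS3 at 183 ± 7.01 and CHS2 at 95.7 ± 3.73 (SD, n = 2). Neighbours in the order overlapped between libraries for CRH1, GAS1 and CHS1 and for CWP1 and CHS2 with rapamycin, and along the run from CWP2 to CHS1 without it. CWP1 lay beside CHS2 with rapamycin, and beside GAS1 and CRH1 without it.

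Ratios of 2 transcripts within a library do not depend on library scaling. Each ratio is that of CPM per kilobase, for 7 pairs of genes with the same role. CWP1 over CWP2 was 0.128 and 0.153 with rapamycin, against 1.03 and 0.356 without it, a mean log2 difference of -2.11. CWP1 over SED1 was 0.0613 and 0.0523 with rapamycin, against 0.348 and 0.204 without it, a mean log2 difference of -2.24. Both CWP1 ratios were lower in both libraries with rapamycin than in either without it. CWP2 over SED1 was 0.479 and 0.341 with rapamycin, against 0.339 and 0.573 without it, and the groups overlapped. Among the synthases, CHS1 over CHS2 was 2.83 and 2.50 with rapamycin, against 4.20 and 3.59 without it, and CHS1 over CHS3 was 1.64 and 1.39 with rapamycin, against 2.20 and 1.88 without it. CHS2 over CHS3 stayed within 0.524 and 0.579 across all 4 libraries. GAS1 over CRH1 was 1.01 and 0.922 with rapamycin, against 1.39 and 1.23 without it. The groups did not overlap in 6 of the 7 ratios. The ratios share genes and are not independent, and the share over other gene pairs was not counted. The two-sided exact permutation p over libraries was 0.333 for each of these 6, the smallest that 2 against 2 libraries allow (Benjamini-Hochberg adjusted p = 0.389 over 7 ratios). For CWP2 over SED1 the exact permutation p was 1.

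Ssl2 acts at the core promoter, where it moves along DNA as the strands are opened for transcription. The upstream windows of 7 of the 8 genes were searched for motifs. The 200 bases upstream of 3 deposited transcript starts are printed from the R64 genome, 5′ to 3′ on the gene's strand: that of CWP1, the gene with the lowest fold change, and those of SED1 and CRH1, which hold a TATA element on their own strand, which is in capitals. The regions are chrXI:260885-261084, plus strand, for CWP1; chrIV:600562-600761, plus strand, for SED1; and chrVII:878255-878454, minus strand, for CRH1.
CWP1 promoter: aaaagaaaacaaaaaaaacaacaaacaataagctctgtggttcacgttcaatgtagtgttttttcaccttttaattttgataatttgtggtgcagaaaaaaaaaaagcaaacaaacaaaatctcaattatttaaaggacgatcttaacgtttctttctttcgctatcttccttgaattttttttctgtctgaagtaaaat
SED1 promoter: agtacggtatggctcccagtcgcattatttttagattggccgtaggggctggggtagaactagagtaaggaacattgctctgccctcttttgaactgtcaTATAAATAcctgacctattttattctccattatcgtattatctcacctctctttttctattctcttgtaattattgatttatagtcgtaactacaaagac
CRH1 promoter: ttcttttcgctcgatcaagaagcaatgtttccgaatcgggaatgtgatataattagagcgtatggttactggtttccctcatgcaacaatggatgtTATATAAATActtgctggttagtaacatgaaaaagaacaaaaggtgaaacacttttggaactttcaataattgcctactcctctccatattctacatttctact
A TATA element was any of TATAAAAA, TATAAAAG, TATAAATA, TATAAATG, TATATAAA, TATATAAG, TATATATA and TATATATG on either strand. It began 100 bases before the start of SED1. CRH1 held a pair of overlapping forms, which began 104 and 102 bases before its start, and CHS2 held one form on the opposite strand, 177 bases before. None of the forms was present in the windows of CWP1, GAS1, CHS1 and CHS3. At least one form was present in 3 of the 7 windows, against 31.3% of 4842 open reading frame promoters of the same length. The motif CNCGAAA, bound by Swi4 with Swi6, was in the windows of CHS2 and CHS3 and in 12.2% of promoters, counted on either strand. No matches other than the pair in CRH1 overlapped each other. The Rlm1 element was in 0 of the 7 windows and in 0.578% of promoters.

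**Figure D3:**
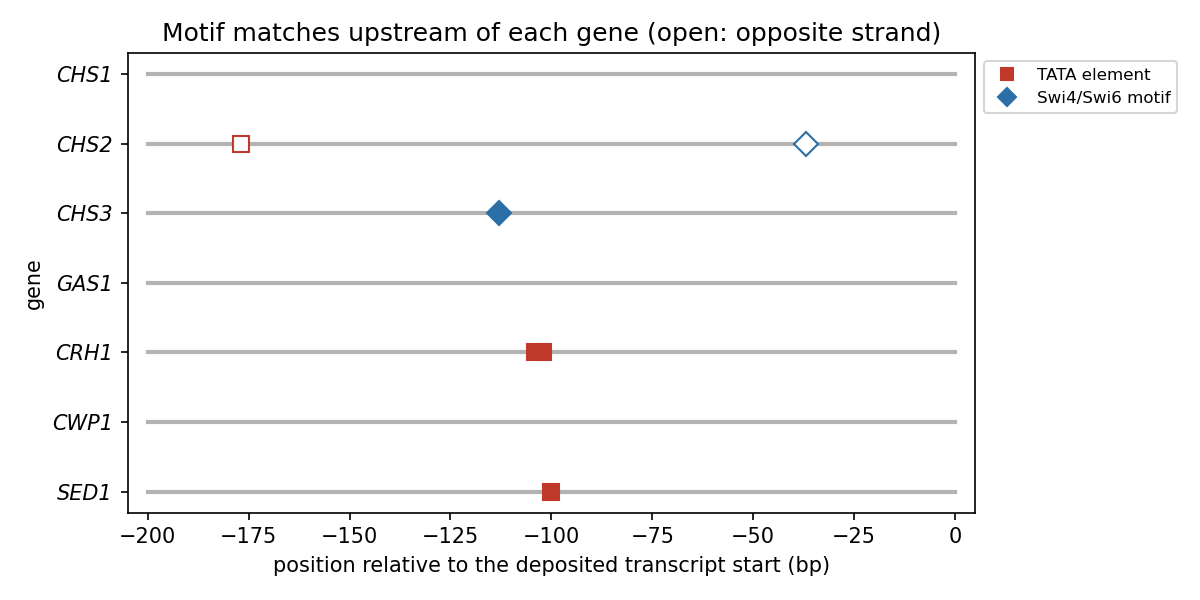
Positions of motif matches in the 200 bp upstream of 7 deposited transcript starts (x axis, bp relative to the start), with squares for TATA elements and diamonds for the Swi4 and Swi6 motif, open when on the opposite strand. CWP1, GAS1 and CHS1 have no match, and the TATA elements of SED1 and CRH1 lie 100 to 104 bp upstream.

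Neighbouring transcripts were taken from the deposited annotation alone and counted in the same way. That annotation lacks some genes, so a gene closer to one of the 8 may be missing. Of the 10 nearest open reading frame transcripts that neither overlap one of the 8 genes nor belong to them, 6 were lower, 1 was higher and 3 were uncalled, where 30.2% of tested open reading frame transcripts were lower. Of the 4 nearest noncoding transcripts that do not overlap, 2 were higher and 2 uncalled, where 19.3% of all tested features were higher. The share among noncoding transcripts alone was not counted. The higher ones were XUT_13R-402, 3388 bp upstream of GAS1 (1.25 ± 0.30), and SUT566, 1081 bp upstream of CRH1 (2.02 ± 0.75). SUT566 had only 23 and 63 counts with rapamycin, against 23 and 25 without it. CHS1 lies between YNL193W, 248 bp upstream, and DUG3, 363 bp downstream, and both were lower (log2 fold changes of -1.07 ± 0.21 and -1.16 ± 0.16, SE). ATP3, an ATP synthase subunit gene 512 bp downstream of CHS2, was higher (0.46 ± 0.16). PSE1, a nuclear import receptor gene that converges on GAS1 and ends 17 bp from it, was uncalled at -0.13 ± 0.23. CWP2 ends 1379 bp before CWP1 starts, and YJU3, which starts 1380 bp after CWP1 ends, was lower (-0.84 ± 0.16). The noncoding transcript XUT_11R-112 lies wholly under CWP1 on the opposite strand, over 680 bp. It measured 1.54 and 3.41 CPM with rapamycin (17 and 48 counts), against 1.53 and 1.29 CPM without it (46 and 38 counts). Its log2 fold change was 0.82 ± 0.73, where that of CWP1 was -2.82 ± 0.21. CHS3 overlaps POA1 on the opposite strand over 208 bp. SED1 overlaps the end of RAD55 on the same strand over 25 bp and SHU2 on the opposite strand over 41 bp, and all of these partners were uncalled. Reads counted as ambiguous were at most 0.0930% of a library. The strand setting of the counting is not given in the sources used here.

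Other genes of the wall were then counted in lists by role. The 6 lists held 128 genes, of which 105 were tested, and 49 were lower, 14 higher and 42 uncalled, with a median log2 fold change of -0.37. These counts are 46.7% lower and 13.3% higher, where 30.2% and 17.5% of tested open reading frame transcripts were lower and higher. The lists were chosen with earlier results of these data known. Upper quartile scaling gave 37 lower and 22 higher. Without no rapa replicate 2 the count was 37 lower and 2 higher. Differences between lists were not tested.

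Of the 18 tested genes of cell wall integrity signalling, 14 were lower, 0 higher and 4 uncalled, with a median log2 fold change of -1.22. The share lower was 77.8%, where 30.2% of tested open reading frame transcripts were lower. The sensors of wall strain lie at the top of the pathway, and MTL1 measured 64.8 and 66.2 CPM with rapamycin, against 230 and 257 CPM without it (log2 fold change of -1.90 ± 0.17, SE). MID2 followed at -1.71 ± 0.16. The other sensor genes, WSC1 (-1.13 ± 0.17), WSC2 (-1.42 ± 0.17) and WSC3 (-1.63 ± 0.18), were named after their values were seen, and all 5 sensor genes fell. RHO1, the GTPase gene that activates both glucan synthase and Pkc1, was uncalled at 0.43 ± 0.19, though upper quartile scaling (0.76) and DESeq2 (0.50) called it higher, as did the fits without TMM factors (0.56), with open reading frames alone (0.56), without overlapping transcripts (0.50) and without with rapa replicate 1 (0.62). LRG1, which encodes a GTPase-activating protein for Rho1, fell (-1.68 ± 0.17). PKC1 was called lower (-0.60 ± 0.22, adjusted p = 0.0401, edgeR), a call lost without no rapa replicate 1 (-0.66), no rapa replicate 2 (-0.56) or with rapa replicate 2 (-0.32), and with DESeq2 size factors (-0.52), upper quartile scaling (-0.29) or open reading frames alone (-0.48). SLT2, the MAP kinase gene, measured 325 and 259 CPM with rapamycin, against 652 and 677 CPM without it (-1.19 ± 0.20). RLM1 measured 141 and 123 CPM with rapamycin, against 348 and 408 CPM without it (-1.52 ± 0.18). KDX1, which encodes an Slt2-like pseudokinase, also fell (-1.74 ± 0.17). The groups did not overlap for SLT2, RLM1 or MTL1.

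Of 10 tested genes of glucan synthesis and assembly, 6 were lower, 0 higher and 4 uncalled, with a median log2 fold change of -0.43. The share lower was 60%, where 30.2% of tested open reading frame transcripts were lower. SMI1, whose product helps coordinate glucan synthesis with growth, fell by 0.98 ± 0.16 on the log2 scale. KRE5 (-0.91 ± 0.18), ROT1 (-0.93 ± 0.20) and KRE6 (-0.87 ± 0.20), all needed for beta-1,6-glucan, fell too. Of 17 tested wall-remodelling enzyme genes, 9 were lower, 2 higher and 6 uncalled, with a median of -1.04. These shares are 52.9% lower and 11.8% higher, where 30.2% and 17.5% of tested open reading frame transcripts were lower and higher. SCW11, a glucanase-like gene, measured 65.4 and 57.5 CPM with rapamycin, against 406 and 423 CPM without it (-2.76 ± 0.18). EGT2 (-2.07 ± 0.22), DSE2 (-2.01 ± 0.18) and SUN4 (-1.76 ± 0.19), whose products have roles in septum breakdown, fell too. CTS1, the chitinase gene that frees the daughter cell, was named after its values were seen and fell by 1.04 ± 0.22 on the log2 scale. The 2 higher genes, GAS5 (0.56 ± 0.20), a paralog of GAS1, and CRR1 (0.79 ± 0.27), a spore wall relative of CRH1, were also named after their values were seen. The GAS5 call was lost without no rapa replicate 1 (0.65), no rapa replicate 2 (0.46) or with rapa replicate 1 (0.42), and the CRR1 call without the same libraries (0.67, 0.89 and 0.43).

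Of 13 tested genes of chitin precursors, delivery and modification, 2 were lower, 4 higher and 7 uncalled, with a median log2 fold change of 0.18. These shares are 15.4% lower and 30.8% higher, where 30.2% and 17.5% of tested open reading frame transcripts were lower and higher. All 3 synthase genes were lower, where 49.0% of tested open reading frame transcripts of at least 3000 bp were lower. The calls of CHS2 and CHS3 were lost in some alternatives. BCH2, which encodes a cargo-binding subunit of the exomer coat that carries Chs3 to the surface, fell (-1.62 ± 0.17), as did CHS7 (-0.86 ± 0.18), whose product lets Chs3 leave the endoplasmic reticulum. SKT5, the activator gene of Chs3 in growing cells, was uncalled at -0.43 ± 0.18 and was called lower without with rapa replicate 1 (-0.62). Its sporulation-specific paralog SHC1 measured 70.5 and 45.2 CPM with rapamycin, against 13.2 and 9.18 CPM without it (2.37 ± 0.28). QRI1, which encodes the enzyme that makes UDP-N-acetylglucosamine, the substrate of chitin synthases, was higher (0.69 ± 0.19), a call lost without no rapa replicate 2 (0.46). The other higher genes, named after their values were seen, were CDA1 (2.33 ± 0.74), a chitin deacetylase gene with 22 to 94 counts a library, and PCM1 (0.51 ± 0.18), an N-acetylglucosamine phosphate mutase gene. The CDA1 call was lost without no rapa replicate 1 (2.03) or no rapa replicate 2 (2.65). The PCM1 call was lost without no rapa replicate 1 (0.66), no rapa replicate 2 (0.34) or with rapa replicate 1 (0.37), and with no low-count filter (0.48). Without no rapa replicate 2 the whole list had 2 lower and 1 higher.

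Of 23 tested genes for other wall mannoproteins, 9 were lower, 3 higher and 11 uncalled, with a median log2 fold change of -0.01. The shares, 39.1% lower and 13.0% higher, are near the 30.2% and 17.5% of all tested open reading frame transcripts. NCW2 (-1.25 ± 0.16), the stress-induced SPI1 (-2.06 ± 0.29) and PIR1 (-1.29 ± 0.20), whose product is linked directly to beta-1,3-glucan, fell. AGA1, which anchors the agglutinin of a cells, measured 374 and 388 CPM with rapamycin, against 121 and 126 CPM without it, and rose (1.62 ± 0.17). The other higher genes were AGA2 and TIR1, both below 100 counts in every library. Both calls were lost without no rapa replicate 1 (4.46 and 1.94) or no rapa replicate 2 (5.36 and 1.84). Of 25 tested mannosylation genes, 9 were lower, 5 higher and 11 uncalled, with a median of -0.30. These shares, 36.0% lower and 20.0% higher, are also near those of all tested open reading frame transcripts. Upper quartile scaling gave 3 lower and 6 higher in this list, and leaving out no rapa replicate 1 gave 3 lower and 4 higher, while leaving out no rapa replicate 2 gave 4 lower and 0 higher. MNT3, a mannosyltransferase gene of O-linked chains, fell most (-2.09 ± 0.17). PSA1, the GDP-mannose pyrophosphorylase gene, measured 297 and 294 CPM with rapamycin, against 907 and 656 CPM without it (-1.40 ± 0.22), and OCH1, whose product starts the outer chain of N-linked mannan, fell (-0.76 ± 0.17). The genes for the other steps from fructose 6-phosphate to GDP-mannose went the other way, with SEC53, the phosphomannomutase gene, at 0.86 ± 0.19 and PMI40, the phosphomannose isomerase gene named after its values were seen, at 0.82 ± 0.20. Both of those calls were lost without no rapa replicate 2 (0.65 for SEC53 and 0.58 for PMI40). PMT5 (0.78 ± 0.20), HOC1 (0.61 ± 0.17) and KTR1 (0.47 ± 0.18), mannosyltransferase genes named after their values were seen, were the other higher ones. The calls of PMT5, HOC1 and KTR1 were also lost without no rapa replicate 2. KTR1 was not called with no low-count filter either (0.45).

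**Figure D4:**
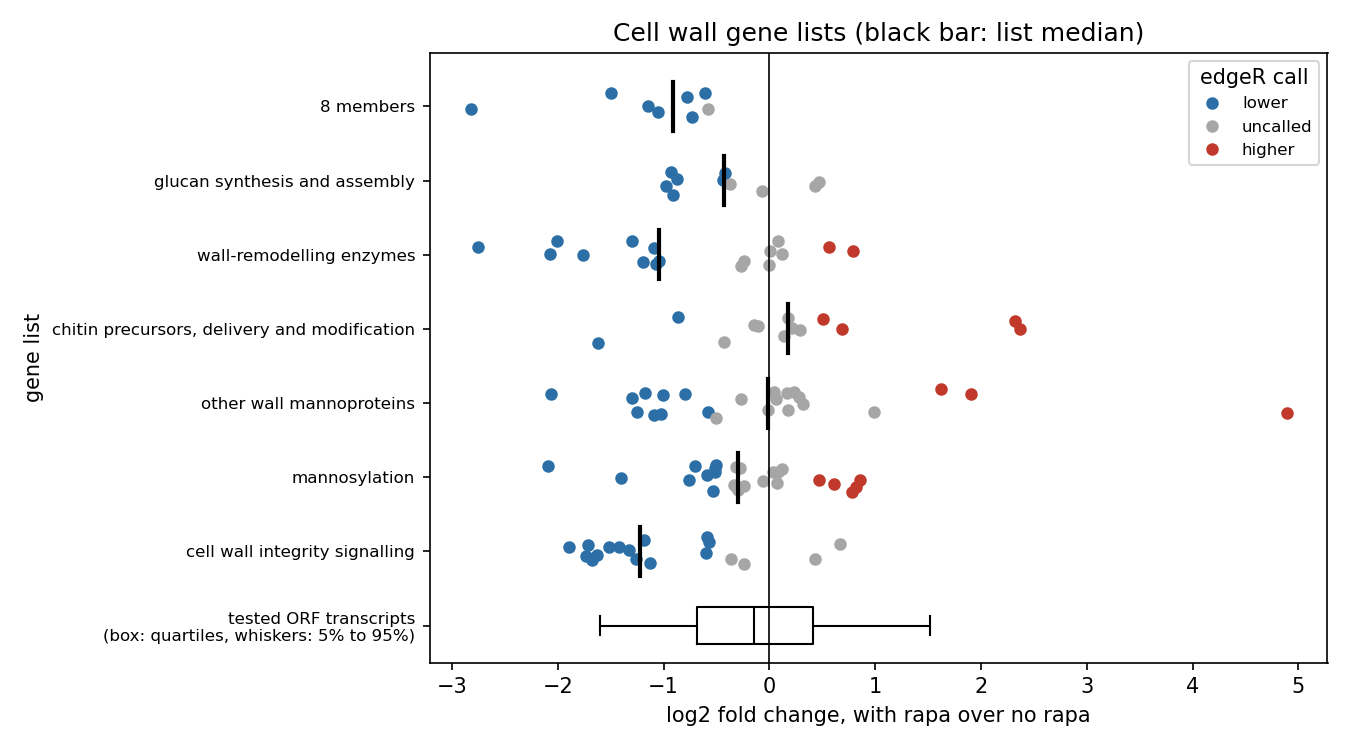
Log2 fold change of each tested gene, with rapa over no rapa, for the 8 genes described and the 6 cell wall lists (rows), coloured by edgeR call, with list medians as black bars and the spread of tested open reading frame transcripts as a box. The integrity list (median -1.22) and the remodelling enzymes (-1.04) lie lowest, and chitin precursors and delivery (0.18) lie highest.

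Markers of other cell states were measured in the same libraries. The 3 tested markers of MATalpha cells summed to 678 and 714 CPM with rapamycin, against 839 and 1002 CPM without it, and the 5 tested markers of MATa cells to 16.9 and 39.2 CPM with rapamycin, against 22.5 and 18.7 CPM without it. No marker of either list was at 0 counts in any library. Of the MATalpha markers, STE3, a pheromone receptor gene, fell (-1.88 ± 0.17), while SAG1 (0.16 ± 0.17) and MF(ALPHA)1 were uncalled. MF(ALPHA)1 stood at -0.04 ± 0.21, above 0 under 7 alternatives, and SAG1 was called higher with upper quartile scaling (0.49). Of the MATa markers, AGA2, BAR1 and MFA1 were called higher, and all 3 calls were lost without no rapa replicate 1 (4.46, 2.19 and 2.49) or no rapa replicate 2 (5.36, 1.46 and 2.90). The calls of BAR1 (0.90) and MFA1 (1.57) were also lost without with rapa replicate 2. STE2, the receptor gene of MATa cells, measured 8.95 and 16.6 CPM with rapamycin, against 17.9 and 15.6 CPM without it. The groups overlapped, and STE2 was uncalled (-0.38 ± 0.35), though called lower without with rapa replicate 2 (-0.81). MFA2 was uncalled (0.98 ± 0.86). AGA2, the partner of AGA1, had 9 and 35 counts (0.814 and 2.48 CPM) with rapamycin, against 1 and 2 (0.0332 and 0.0680 CPM) without it. The 5 tested markers of sporulating cells summed to 101 and 105 CPM with rapamycin, against 34.6 and 36.1 CPM without it. Of these 5, 4 were called higher, among them SPR1 (2.35 ± 0.30) and DIT1 (1.97 ± 0.33). Of tested open reading frame transcripts, 17.5% were called higher. CRR1 and CDA1 belong both to that list and to the lists above, and both calls were lost without no rapa replicate 1 (0.67 and 2.03) or no rapa replicate 2. The part of sporulation markers in the higher values of SHC1, CRR1 and CDA1 was not tested.

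Among 4503 other named genes, the likeness of each profile was taken as the root mean square difference of centred log2 CPM over the 4 libraries. CWP1 was most like RIE1 (0.138) and TSL1 (0.139), and 7 genes lay within 0.2 of it. CWP2 was most like IMO32 (0.182) and CTF8 (0.198), the only 2 genes within 0.2. For the other 6 genes between 212 (GAS1) and 776 (CHS3) genes lay within 0.2, so their nearest profiles, such as SSC1 for CHS1 (0.0301) and SNF11 for GAS1 (0.0388), were 2 of many close ones. With 4 libraries in 2 groups, likeness mostly reflects a shared size of change between the groups.

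**Figure D5:**
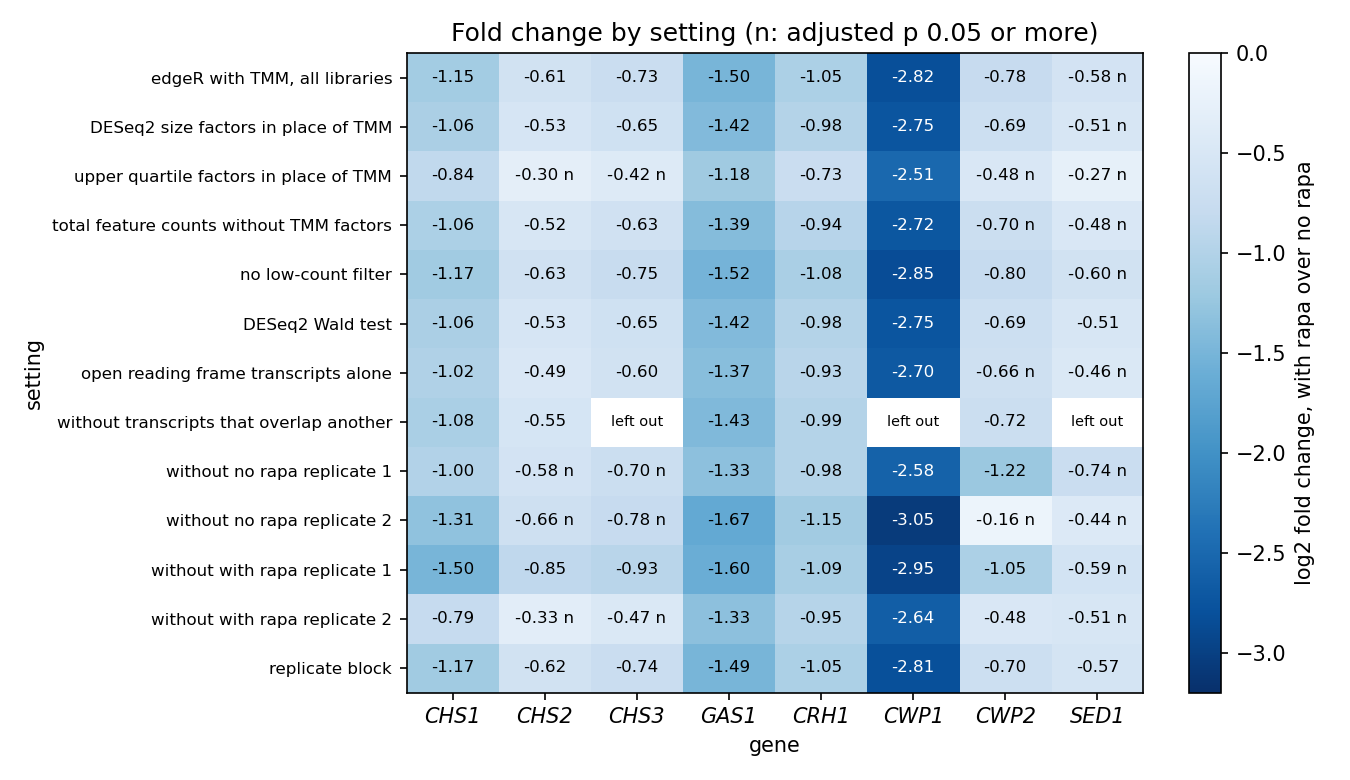
Log2 fold change of each cell wall gene (columns), with rapa over no rapa, in the fit reported and in 12 alternatives (rows), with n for an adjusted p of 0.05 or more and "left out" for transcripts that overlap another. Every value is below 0, and the CWP1 column runs from -3.05 to -2.51 while CWP2 reaches -0.16 without no rapa replicate 2.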

How the data were processed

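Labelled RNA was measured in 2 libraries with rapamycin and 2 without it. The authors deposited raw read counts per transcript and the transcript annotation. The submitters' processing notes name STAR 2.3.0, SAMtools, HTSeq, sacCer3 and R64, with no role or order; filters and the strand setting are not given in the sources used here. Per the labels, spike-ins were added before lysis, and they were not used here. Rows that name no feature (reads outside features, 33.1% to 50.45%, and ambiguous reads, at most 0.0930%) entered neither library sizes nor tests, and the multiple alignment row held 0. Replicates were checked for duplicate libraries: chi-square over degrees of freedom was 65.7 with rapamycin and 80.4 without it, far above sampling noise.

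Groups were compared by the quasi-likelihood F-test of edgeR 4.0.16 (R 4.3.3), after filterByExpr and with TMM scaling, adjusted by Benjamini-Hochberg over 5707 features. The SE is the absolute log2 fold change over the square root of F. The code was tested on simulated counts, in which far fewer genes were changed than were called here. It recovered 71% of 100 genes changed by 1 on the log2 scale and 91.8% of 98 changed by 2. False calls made up 7.47% of calls. DESeq2 1.42.0, other scalings, no filter, subsets of features, leaving out each library and a replicate block were alternatives. The upstream window of 1 of the 8 genes is not reported here. Motifs were searched in R64, whose 4842 matching open reading frames share systematic names with the annotation.

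The 8 genes, the lists, the motifs and the tests were chosen with earlier results of these data known. Named genes were all 8, up to 4 called genes with the smallest adjusted p in each list, 5 regulators, the 2 most alike profiles and the neighbours; others, chosen after their values were seen, are marked where named or are markers of mating type and sporulation. The ratio of FKS1 to GSC2 was not run.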

Additional observations from a re-analysis of the deposited data

Results flagged for a closer look

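Reads that fell outside every deposited feature, which enter none of the comparisons, made up 50.45% of reads in with rapa replicate 1 and 49.95% in with rapa replicate 2, against 33.7% and 33.1% in no rapa replicates 1 and 2. These reads were not assigned to any position in the deposited counts, so they could not be set beside the wall genes.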

How the results depend on the processing

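All 8 genes kept a log2 fold change below 0 in every alternative that tested them. Of 93 values, 79 stayed on the same side of the threshold, 12 lost a call (CHS2, CHS3 and CWP2) and 2 gained one (SED1). With upper quartile scaling 4 of the 8 were called, and calls over all features were 1706 higher and 961 lower, against 1101 and 1522 with TMM. That scaling moved the median of all features by 0.32 and total counts without TMM factors by 0.10 (log2). Relative to the median of all features, the median of the 8 genes was -0.89 with upper quartile scaling, -0.90 without TMM factors and -0.88 with TMM. Without transcripts that overlap another, 1330 of 2760 features were called, and 33 genes of the 6 lists, of 62 left; fewer features were tested. Leaving out 1 library gave 1588 to 3312 called features, against 2623, 4 to 7 of the 8 genes, and 39 to 68 list genes, against 63; each such fit has a lone library in 1 group, assumed to vary like the other pair. Replicate numbers are shared between groups, but the labels name no shared culture or day. Differences between replicates 1 and 2 correlated at 0.233 between the groups, across genes, and with a replicate block 2970 features and all 8 genes were called, SED1 with an adjusted p of 0.00895 (edgeR). MF(ALPHA)1, uncalled throughout and at -0.035 with TMM, was above 0 with DESeq2 size factors (0.040), upper quartile scaling (0.28), total counts (0.060), DESeq2 (0.040) and open reading frames alone (0.088), and ran between -0.30 and 0.25 with 1 library left out; the cause was not tested. With windows before the reference gene start, 2 of 7 windows held a TATA element and 1 held CNCGAAA. The ratio of FKS1 to GSC2 was not run. With 2 libraries a group, an exact permutation test cannot go below 0.333.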
